A study of Mus musculus with 17 samples.

Results

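Hedgehog signalling was examined at the start sites of 8 genes: the ligands Shh and Ihh, the receptor Ptch1, the membrane transducer Smo, the antagonist Hhip, and the transcription factors Gli1, Gli2 and Gli3. The members were loops of the deposited H3K27ac HiChIP libraries with an anchor within 5 kb of an annotated transcript start of one of these genes in the mouse mm9 build. HiChIP joins a pull-down of chromatin carrying a histone mark with ligation of DNA ends that lie close together in the nucleus, so that each read pair records a contact between 2 anchors that carry the active mark H3K27ac. In all, 443 of 1211657 loops, holding 835 of 2025314 read pairs, met the rule. They held 552 read pairs in bulk and 283 in cluster2.

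All libraries came from the R1 line of mouse embryonic stem cells, grown as embryoid bodies in hanging drops and exposed to 0.5 µM retinoic acid until day 4. The 12 bulk libraries were made from unsorted cells. The 5 cluster2 libraries were made, according to the methods, from cells sorted as positive for both EpCAM and CD38, while their labels say cluster2 alone. Treatment, day and line were the same in both groups, and a single parental line stands behind all 17 libraries. Antibody staining and sorting before fixation, described for the double positive cells alone, ran with group. Their effect cannot be told apart from that of cell type. Unsorted cells include double positive cells, so the groups were not separate populations.

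In the pathway, Hedgehog ligands bind PTCH1, which otherwise holds SMO inactive. Active SMO, at the primary cilium, switches GLI2 and GLI3 from repressor to activator forms, and GLI1, PTCH1 and HHIP are themselves induced as targets. In the early mouse embryo Ihh is made by visceral endoderm and later by gut and cartilage, whereas Shh is made by the notochord and floor plate and patterns the neural tube, where Gli2 and Gli3 read the signal.

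The groups differed in depth and in their anchors. Totals ran from 65148 to 241068 read pairs in bulk and from 50508 to 118179 in cluster2. Of 216081 joined anchors, 15074 were used in both groups, 200999 in bulk alone and 8 in cluster2 alone, and loops at gene starts took 49.8% of bulk read pairs but 94.9% of those in cluster2. All 3058 tested genes without a start-site anchor in the cluster2 set counted as lower there. Each of the 8 genes had at least 1 start-site anchor in the cluster2 set, 9 of 16 such anchors in total. A lower count at a gene can come from fewer cells that carry a contact or from fewer contacts per cell, and these cannot be told apart in these libraries. For an anchor that is missing from the cluster2 set, a weaker mark, a peak not called at the cluster2 depth and an anchor set limited during processing cannot be told apart, and a count of 0 there may be fixed by that set. The spans and partner classes of cluster2 loops are bound by the same set.

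Relative to bulk, cluster2 had more read pairs at Ihh and Gli1 and fewer at Ptch1, Smo, Hhip, Gli2 and Gli3, while Shh did not pass the test. That is 2 of 8 genes higher, against 20.6% of all 14115 genes tested, and 5 of 8 lower, against 42.8% (edgeR's quasi-likelihood test with TMM scaling, Benjamini-Hochberg adjusted over all genes). Among the 11057 tested genes with a start-site anchor in the cluster2 set, 26.3% were higher and 27% lower. The median log2 fold change was -1.45 over the 8 genes and -0.52 over all genes. With scaling to library totals alone, the median over all genes moved to 1.21, and the 8 genes then held 2 higher calls, Ihh and Gli1, and 2 lower calls, Gli2 and Gli3, against backgrounds of 55.3% and 26.2%. When counting was limited to loops whose 2 anchors were used in both groups, 3 of the 8 genes kept enough read pairs to be tested. Of these Ihh was higher, and Ptch1 and Gli1 passed in neither direction, against 25.7% of 9845 genes higher and 10% lower.

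**Figure D1:**
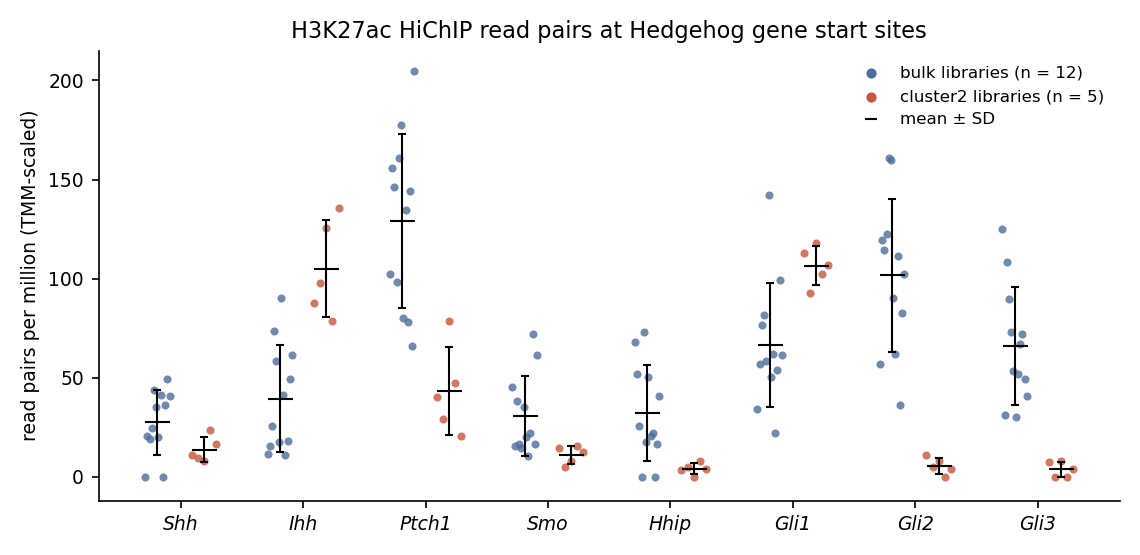
Read pairs in CPM at the start sites of the 8 genes (vertical axis, scaled by library total and TMM factor), with 1 point per library, blue for the 12 bulk and red for the 5 cluster2 libraries, and black bars for mean ± SD. At Gli2 and Gli3 all 12 bulk libraries lie above every cluster2 library, as at 2110 of all 14115 tested genes. At Ihh 11 of 12 bulk libraries lie below the lowest cluster2 library.

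Of the ligands, Ihh had 103 read pairs in cluster2 and 43 in bulk. The counts in cluster2 replicates 1 to 5 were 24, 20, 16, 10 and 33, and those in bulk ran from 1 through a median of 3 to 9. Scaled values are in CPM, read pairs per 1000000 of the library total times its TMM factor. Ihh stood at 105 ± 24.5 CPM in cluster2 (SD, n = 5) and 39.5 ± 27 CPM in bulk (SD, n = 12). In CPM the groups did not fully separate, as 11 of 12 bulk libraries lay below the lowest cluster2 library. Full separation with cluster2 higher was seen at 1019 of 14115 tested genes. The log2 fold change was 1.42 ± 0.34 (SE), with an adjusted p of 0.000481 in edgeR. The call held in every alternative run, with log2 fold changes between 0.69 and 3.19. On shared anchors alone Ihh had 10 bulk and 103 cluster2 read pairs, a log2 fold change of 2.20 (edgeR adjusted p = 8.2e-06).

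The single start-site anchor of Ihh lay at chr1:74994510-74999510 over the first exon. In cluster2, the most-read loop, with 13 read pairs in 4 of 5 libraries, joined it to chr1:75119982-75122608, 123 kb upstream in exonic sequence of Slc23a3, a gene of the nucleobase transporter family. The second, with 12 read pairs in 5 of 5 libraries, led to chr1:75136937-75140797, 141 kb upstream at the starts of Fam134a and 1810031K17Rik. Neither loop had a read pair in any bulk library, where Ihh had 10 read pairs on shared anchors in all. Another partner, 76.2 kb upstream inside Nhej1, whose introns are known to hold Ihh enhancers, had 2 read pairs in bulk and 7 in cluster2. It lay within the gene but outside its annotated exons. By contrast, the most-read bulk loop of Ihh, with 6 read pairs in 4 libraries, ended 12 kb upstream near the start of Nhej1, on an anchor that was not in the cluster2 set.

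Spans of Ihh loops followed the anchors. Of 103 read pairs, 89 spanned over 100 kb and 0 spanned under 20 kb, while 18 of 43 bulk read pairs spanned over 100 kb and 12 spanned under 20 kb. The median span was 168 kb in cluster2 and 77.4 kb in bulk. The short bulk loops all led to anchors outside the cluster2 set. On shared anchors, 7 of 10 bulk read pairs spanned over 100 kb and 0 under 20 kb, with a median of 184 kb, so the difference was not seen there. In cluster2, 73 of the 103 read pairs led upstream and 72 led to an anchor near the start of another gene. The 48 tested genes within 2 Mb of Ihh, some of which share these loops, had a median log2 fold change of 0.83.

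Sequence just upstream of the Ihh start is shown because this window lies within the anchor that gained read pairs. That of Gli2 is shown because its start anchor had 47 read pairs in bulk and 6 in cluster2. Both are the 150 bases before the RefSeq start (GRCm38.p6 promoter table), found once each in mm9, on the minus strand, at chr1:74998247-74998396 for Ihh and chr1:120950197-120950346 for Gli2. Capitals mark CpG dinucleotides, 12 in Ihh and 16 in Gli2.
Ihh: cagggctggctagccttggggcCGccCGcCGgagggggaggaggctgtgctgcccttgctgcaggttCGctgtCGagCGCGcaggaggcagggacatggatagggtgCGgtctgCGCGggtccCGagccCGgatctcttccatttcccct
Gli2: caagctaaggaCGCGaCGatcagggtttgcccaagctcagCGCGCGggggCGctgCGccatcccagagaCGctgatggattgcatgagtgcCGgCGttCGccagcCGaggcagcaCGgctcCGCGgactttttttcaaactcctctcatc

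The table matched 6 of the 8 genes, all but Shh and Gli1, and each of these promoters fell on 1 HiChIP anchor. All 6 were rich in G and C, between 67.3% for Gli2 and 76.3% for Ptch1. The letters TGGGTGGTC, the core of the GLI binding motif, or their reverse GACCACCCA, were in none of the 6 windows of 300 bases and in 0.253% of all 32851 RefSeq promoters. The FOXA letters TGTTTAC and the GATA letters AGATAAG, read on both strands, were likewise absent from the 6 windows and were in 3.65% and 3.04% of all promoters.

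Shh had few read pairs. It had 28 in bulk and 13 in cluster2. Cluster2 replicates 1 to 5 held 3, 2, 1, 3 and 4, and bulk libraries held between 0 and 4 with a median of 2.5. The groups overlapped in raw counts, and at 13.7 ± 6.40 CPM in cluster2 (SD, n = 5) against 27.7 ± 16.4 CPM in bulk (SD, n = 12) the difference did not pass the test (log2 fold change -0.87 ± 0.54 SE, edgeR adjusted p = 0.154). Its sign turned with library size alone, to 0.82. The most-read loop of Shh joined its start, at chr5:28790266-28794462, to an anchor 8.13 kb downstream within the gene, with 2 read pairs in bulk and 4 in cluster2. Of its bulk read pairs, 21 of 28 spanned over 100 kb. Among these were single read pairs to 3 anchors in the body of Lmbr1, 784, 808 and 896 kb upstream. An intron of Lmbr1 holds the limb enhancer of Shh, but whether any of these anchors overlaps it was not examined. No cluster2 read pair joined Shh to Lmbr1. With 13 read pairs of Shh in cluster2 and single read pairs in bulk, this shows no difference between the groups. A count of 0 may also be fixed by the cluster2 anchor set.

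Among the receptors and their antagonist, Ptch1 was the member with most bulk read pairs, 145 against 38 in cluster2. The counts in cluster2 replicates 1 to 5 were 11, 6, 10, 6 and 5, and bulk ran from 4 through a median of 10 to 30. In CPM, Ptch1 fell from 129 ± 43.7 (SD, n = 12) to 43.2 ± 22.3 (SD, n = 5), and 10 of 12 bulk libraries lay above the highest cluster2 library. The log2 fold change was -1.63 ± 0.32 (SE), edgeR adjusted p = 3.91e-05. With library size alone it became 0.12 (adjusted p = 0.753) and on shared anchors alone -0.44 (adjusted p = 0.426), so the call rested on TMM scaling and on bulk anchors. Relative to the median of all genes, the difference was -1.11 with TMM, -1.09 with library size and -0.86 on shared anchors.

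The most-read loop of Ptch1, the only one of the 443 that passed the filter of the loop test, joined chr13:63661753-63670521 to chr13:63673411-63675747 across 8.44 kb, between the main start and the most upstream annotated start. It held 9 read pairs in bulk, in 8 of 12 libraries, and 13 in cluster2, counted as 3, 0, 7, 2 and 1 in replicates 1 to 5. The loop did not pass the test (log2 fold change 0.71 ± 0.60 SE, edgeR adjusted p = 0.269), where 56.1% of 5369 loops tested were higher. It passed with library size alone, at 2.36 (adjusted p = 0.000244). Next came a loop to an anchor 10.4 kb downstream within Ptch1, with 4 bulk and 8 cluster2 read pairs. Of 38 cluster2 read pairs 21 spanned under 20 kb, against 17 of 145 in bulk, but on shared anchors bulk had 13 of 25, so the shares of 55.3% and 52% were close there. Over all anchors, 95 of 145 bulk read pairs spanned more than 100 kb and 113 led upstream. For example, 5 bulk read pairs and 0 in cluster2 joined the start to an intergenic anchor 461 kb upstream that was not in the cluster2 set.

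Both anchors of this loop held the GLI core letters, and the 49 bases around each match are printed here for that reason, on the strand of the gene, with the match in capitals. The first lay at chr13:63667723-63667771, 919 bases upstream of the nearest annotated start, and the second at chr13:63674753-63674801, 303 bases upstream of the most upstream start. Neither overlapped an annotated exon.
Ptch1 main start: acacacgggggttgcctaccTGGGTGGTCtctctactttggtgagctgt
Ptch1 upstream start: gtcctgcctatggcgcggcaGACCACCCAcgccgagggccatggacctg

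These were the only matches in the start-site anchors of the 6 genes in the promoter table. For comparison, 2.02% of all 216081 anchors held a match, 7.48% of the 428 anchors of length similar to the first and 1.76% of the 43409 of length similar to the second. A match describes the letters alone.

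**Figure D2:**
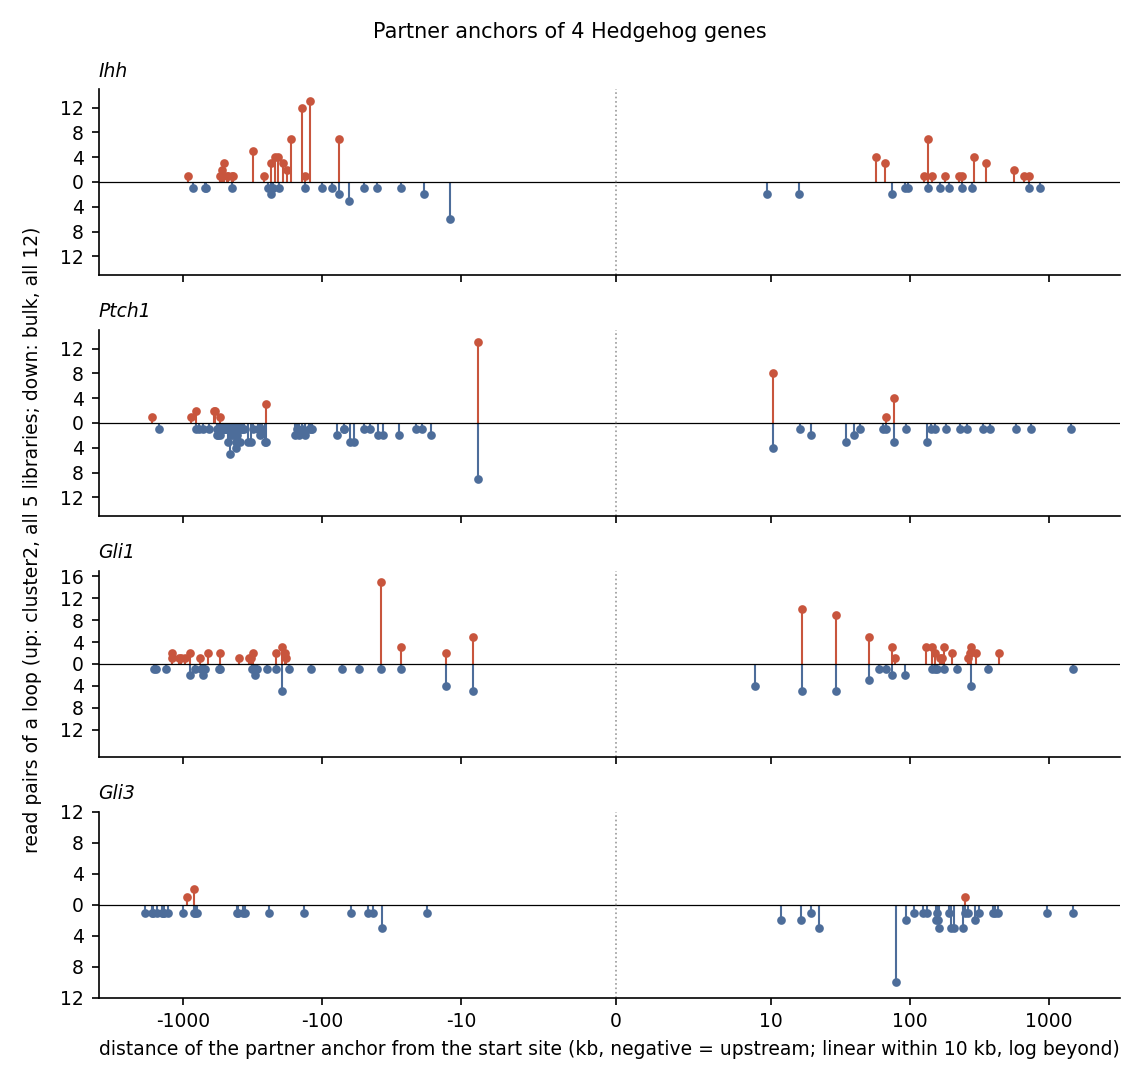
Partner anchors of Ihh, Ptch1, Gli1 and Gli3 by their distance from the start site in kb (horizontal axis, upstream negative, logarithmic beyond 10 kb), with 1 stem per loop and its height the read pairs summed over the 5 cluster2 libraries (red, upward) or the 12 bulk libraries (blue, downward). Ihh has 2 tall cluster2 stems of 13 and 12 read pairs at 123 and 141 kb upstream with none below them, and Gli3 has a bulk stem of 10 read pairs 79.9 kb downstream with none above it. Stems are raw sums, not scaled for the number or depth of the libraries.

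Smo, the membrane protein that Ptch1 restrains, had 31 read pairs in bulk and 11 in cluster2. Replicates 1 to 5 of cluster2 held 4, 1, 1, 2 and 3, and bulk libraries between 1 and 6 with a median of 2. At 11.1 ± 4.60 CPM in cluster2 (SD, n = 5) and 30.7 ± 20.1 CPM in bulk (SD, n = 12), the log2 fold change was -1.26 ± 0.51 (SE), edgeR adjusted p = 0.0312. The call was lost in 9 of 29 alternatives, and in 1 more, library size alone, the sign turned as well, to 0.41. Leaving out cluster2 replicate 2, cluster2 replicate 3 or bulk replicate 10 ended it, with adjusted p of 0.0866, 0.0564 and 0.0561. The most-read loop of Smo led 33.0 kb downstream to the start of Ahcyl2, with 2 bulk and 4 cluster2 read pairs. All 11 cluster2 read pairs of Smo ended near the start of another gene, as did 14 of 31 in bulk.

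Hhip, which binds and sequesters Hedgehog ligands, had 38 read pairs in bulk and 4 in cluster2. Each of cluster2 replicates 1, 2, 4 and 5 held 1, replicate 3 held 0, and bulk ran from 0 through a median of 2 to 10. In CPM, 10 of 12 bulk libraries were above the highest cluster2 library, with means of 32.3 ± 24.4 (SD, n = 12) and 4.11 ± 2.83 (SD, n = 5). The log2 fold change was -2.73 ± 0.67 (SE), edgeR adjusted p = 0.000571, and -1.15 (adjusted p = 0.151) with library size alone. Of the 3 start-site anchors of Hhip, 1 was in the cluster2 set. On shared anchors it had 3 bulk and 4 cluster2 read pairs. The 13 tested genes within 2 Mb had a median log2 fold change of -2.41.

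The 3 transcription factors diverged. Gli1, a transcriptional activator whose own transcription is a standard readout of the pathway, had 104 read pairs in cluster2 and 73 in bulk. Replicates 1 to 5 of cluster2 held 31, 19, 15, 13 and 26, and bulk ran from 2 through a median of 5.5 to 12. In CPM 10 of 12 bulk libraries lay below the lowest cluster2 library and 1 lay above the highest, so the groups did not fully separate. The means were 107 ± 9.73 CPM in cluster2 (SD, n = 5) and 66.6 ± 31.2 CPM in bulk (SD, n = 12), with a log2 fold change of 0.71 ± 0.28 (SE) and an edgeR adjusted p of 0.0261. Leaving out cluster2 replicate 1 or 3 ended the call, at adjusted p of 0.0613 and 0.053. On shared anchors, which held 54 of its 73 bulk read pairs, the sign turned, to -0.14 (adjusted p = 0.739). The 96 tested genes within 2 Mb, some of which share its loops, had a median of 0.58, near the value of Gli1 itself.

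Partners of Gli1 were for the most part other gene starts in its dense neighbourhood: 99 of 104 cluster2 read pairs and 60 of 73 in bulk ended near one. From its anchor at chr10:126775298-126780581, the most-read loop led 37.7 kb upstream to R3hdm2, with 1 read pair in bulk and 15 in cluster2, spread as 4, 5, 2, 2 and 2 over replicates 1 to 5. The next ran downstream to Arhgap9, with 5 bulk and 10 cluster2 read pairs, and to Mars, a methionyl-tRNA synthetase, with 5 and 9. The contact with Inhbe, an inhibin subunit gene, had 5 in each group. Of the 62 loops of Gli1, 17 were seen in both groups, more than for any other member.

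Gli2, the main activator downstream of SMO, had 118 read pairs in bulk and 6 in cluster2. The cluster2 counts were 3, 1, 1, 0 and 1, and bulk ran from 2 through a median of 9 to 23. All 12 bulk libraries were above every cluster2 library in CPM, with means of 102 ± 38.5 (SD, n = 12) and 5.56 ± 4.12 (SD, n = 5). Such a separation was common, at 2110 of the 14115 tested genes, and 1019 were separated the other way. The log2 fold change was -3.87 ± 0.44 (SE), edgeR adjusted p = 4.94e-09, and it lay between -4.27 and -2.23, with the call kept, in all 30 alternatives in which the gene could be tested. Of its 4 start-site anchors, 1, at chr1:120949210-120951648, was in the cluster2 set, and loops on shared anchors held 2 bulk and 6 cluster2 read pairs. Pooled by library totals these are 1.24 and 14.7 CPM, and with TMM 1.76 and 6.15 CPM. Cluster2 was thus the higher group there, at counts too few to test, and 11 of 12 bulk libraries held 0. The lower call of Gli2 rested on bulk loops with an anchor outside the cluster2 set. The most-read bulk loop, with 18 read pairs in 9 libraries and 0 in cluster2, spanned 5.90 kb between that anchor and one at chr1:120943373-120945682 that was not in the cluster2 set. The 15 tested genes within 2 Mb had a median log2 fold change of -4.25, so Gli2 lay above the median of its neighbours.

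Gli3, which acts mainly as the pathway's repressor, had 76 read pairs in bulk and 4 in cluster2. Replicates 1 to 5 of cluster2 held 2, 0, 1, 0 and 1, and bulk ran from 2 through a median of 5 to 17. Again all 12 bulk libraries were above every cluster2 library, with means of 66.0 ± 29.7 CPM (SD, n = 12) and 3.85 ± 3.80 CPM (SD, n = 5). The log2 fold change was -3.75 ± 0.54 (SE), edgeR adjusted p = 3.81e-07, within -4.18 and -2.17 in the 30 alternatives that could be run, all past the threshold. On shared anchors Gli3 had 14 bulk and 4 cluster2 read pairs, under the filter and not tested. Pooled by library totals these are 8.66 and 9.77 CPM, and with TMM 12.3 and 4.10 CPM, so the direction turned with the scaling. Bulk replicates 1 and 3 held 4 and 5 of the 14, and 5 of 12 bulk libraries held 0. Its most-read loop joined the start, at chr13:15553911-15558050, to chr13:15632868-15638568, 79.9 kb downstream in intronic sequence of Gli3, with 10 read pairs in 5 bulk libraries and 0 in cluster2. Both anchors were in the cluster2 set, and the loop was under the filter and not tested. The count of 0 allows up to 3 read pairs over the 5 libraries, by counting error alone. With TMM that bound is 3.07 CPM, against 8.99 ± 14.0 CPM in bulk (SD, n = 12). By library totals the bound lies above the bulk level of this loop, so no difference is shown with that scaling. In bulk, 48 of 76 read pairs of Gli3 ended inside a gene body away from any start.

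**Figure D3:**
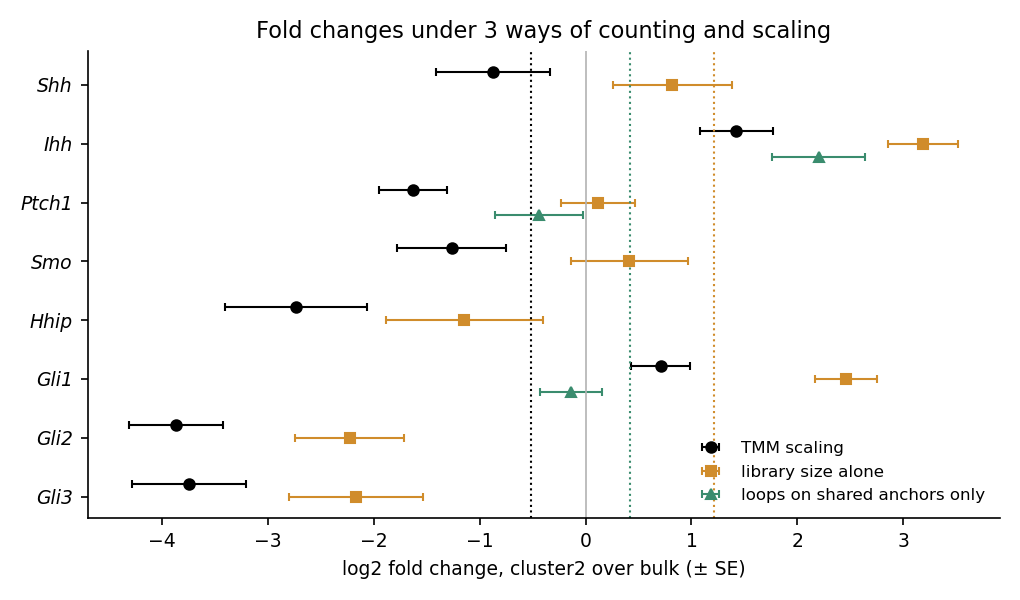
Log2 fold changes of cluster2 over bulk (horizontal axis, bars ± SE) for the 8 genes with TMM scaling (black circles), library size alone (orange squares) and loops on shared anchors only (green triangles, 3 genes), with dotted lines at the median of all genes under each. Ihh lies right of all 3 medians, Gli2 and Gli3 lie left of theirs, and Gli1 lies right of the median except on shared anchors.

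A comparison within the pathway needs no scaling between libraries, but it depends on the anchor set. On shared anchors lay 118 of the 552 bulk read pairs and all 283 of cluster2. The shares of a library are also bound to each other by their common total. Of the read pairs that each library had at the 8 genes, Ihh took 30.4, 40.0, 35.6, 28.6 and 44.6% in cluster2 replicates 1 to 5 and between 2.56 and 20.9% in bulk, with a median of 6.84%. Gli1 took 33.3 to 39.2% in cluster2 and 6.67 to 23.1% in bulk. For both genes the ranges did not overlap. Gli2 took 0 to 3.80% in cluster2 against 8.33 to 33.3%, and Gli3 0 to 2.53% against 6.67 to 28.2%, again without overlap. How often such shares separate in other gene sets was not counted. In CPM, 1019 of 14115 tested genes separated with cluster2 higher and 2110 with cluster2 lower. Ptch1 overlapped, at 6.76 to 22.2% against 15.4 to 33.3%. On shared anchors alone, where bulk libraries held 1 to 25 read pairs at the 8 genes, Ihh took 0 to 20% in bulk and 28.6 to 44.6% in cluster2, still without overlap. There the ranges of the other 3 overlapped, at 20 to 100% against 33.3 to 39.2% for Gli1, 0 to 20% against 0 to 3.80% for Gli2, and 0 to 40% against 0 to 2.53% for Gli3.

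**Figure D4:**
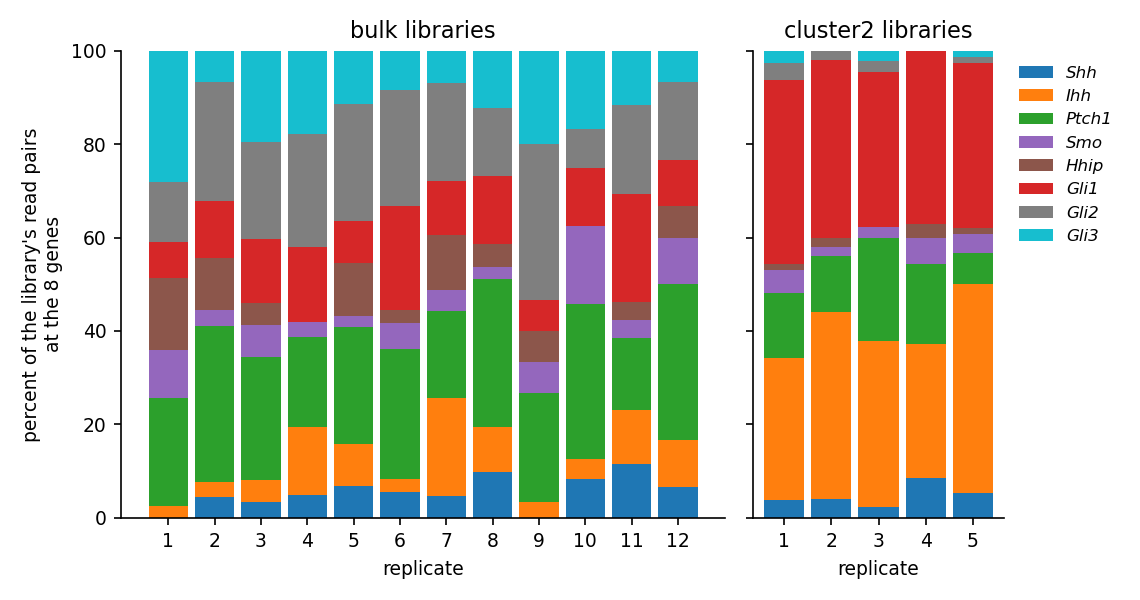
Share of each library's read pairs at the 8 genes that fell to each gene (vertical axis in percent, 1 bar per library, replicate number on the horizontal axis). Ihh (orange) and Gli1 (red) together fill most of each cluster2 bar, and Gli2 (grey) and Gli3 (cyan) are visible in every bulk bar but small or missing in cluster2.

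Per kb of start-site anchor, which allows levels to be set side by side between genes, Gli3 led in bulk at 16 ± 7.17 CPM per kb (SD, n = 12), followed by Gli1 at 12.6 ± 5.91, Ptch1 at 10.2 ± 3.45, Smo at 8.53 ± 5.58, Gli2 at 8.09 ± 3.06 and Ihh at 7.91 ± 5.39. Each of these neighbours differed by less than 1 SD. Shh at 3.84 ± 2.28 and Hhip at 2.99 ± 2.27 closed the order. In cluster2, Ihh at 21 ± 4.91 and Gli1 at 20.2 ± 1.84 CPM per kb (SD, n = 5) led and did not differ beyond their spread. Ptch1 followed at 3.42 ± 1.76, Smo at 3.08 ± 1.28 and Shh at 1.91 ± 0.888, with Gli3, Gli2 and Hhip each under 1. These lengths include anchors outside the cluster2 set. Per kb of cluster2 anchors alone, Gli2 stood at 2.28 ± 1.69 and Shh at 3.27 ± 1.52, with Gli3 and Hhip still under 1.

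Across the 17 libraries, the genes on other chromosomes whose log2(CPM + 1) followed a member most closely were Dhrs13 (Pearson r = 0.85) and Ttc25 (0.816) for Ihh, and Mgat5b (0.976) and Map3k1 (0.974) for Gli2. For Gli3 they were 1200016B10Rik (0.965) and Phyh (0.961), for Ptch1 Psma7 (0.913) and Zfp423 (0.911), and for Gli1 Cd248 (0.85) and Mamstr (0.844). Shh was followed by Magel2 (0.841) and E330009J07Rik (0.83), Smo by Glis3 (0.826) and Cercam (0.82), and Hhip by Tctex1d1 (0.875) and Cnga3 (0.861). These values describe points that share group and depth. Within the 12 bulk libraries, the values for Gli3 fell to 0.426 and 0.227, while those for Hhip were 0.931 and 0.907.

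Other genes of the pathway were counted by lists, to be read beside the 20.6% of all genes higher, the 42.8% lower and the median of -0.52. List counts with library size alone are to be read beside 55.3% of all genes higher and 26.2% lower. Of the ligand-side genes, which lipidate, release or carry the ligand, 4 of 6 tested were lower and 0 higher, with a median log2 fold change of -1.88. Hhat, the acyltransferase that palmitoylates the ligand, went from 1148 bulk to 43 cluster2 read pairs (log2 fold change -4.57, edgeR adjusted p = 5.34e-16), and Scube1, Scube2 and Scube3, secreted proteins that carry the ligand, were lower at -2.27, -1.49 and -2.64. Dhh, the remaining ligand, had 15 bulk and 29 cluster2 read pairs and did not pass the test (adjusted p = 0.109). Scaled by library totals alone, 2 of the 6 were higher and 1, Hhat, was lower. The bulk count of Hhat stood apart from the rest of this list, where the next was Scube3 with 104 read pairs.

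Co-receptors were lower in 4 of 5 tested, with a median of -1.54. Cdon, Boc and Gas1, which help ligands bind PTCH1, had log2 fold changes of -1.54, -3.48 and -1.40. Lrp2 had 28 bulk read pairs and no start-site anchor or read pair in cluster2. Scaled by library size alone, 2 of the 5 were lower and 1 was higher.

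Of 23 tested genes that carry the signal or control GLI proteins, 13 were lower and 1 higher, with a median of -1.40. Sufu, which holds GLI proteins in the cytoplasm, was lower at -1.44 (edgeR adjusted p = 3.81e-06), and Gnas, the G protein subunit that feeds protein kinase A, at -2.37 (adjusted p = 5.17e-12). Ulk3, a kinase of GLI proteins, was higher, with 12 bulk and 48 cluster2 read pairs (2.15, adjusted p = 0.000202). Evc and Evc2, ciliary partners of SMO, had 44 and 47 bulk read pairs and none in cluster2, as they had no start-site anchor in its set. In all, 6 of the 13 lower genes lacked such an anchor. Under library size alone this list had 10 of 23 higher and 7 lower, where 55.3% of all genes were higher and 26.2% lower. Of 12 cilium transport genes, with a median of -1.20, 6 were lower and 1, Tulp3, which brings receptors into the cilium, was higher at 0.54 (adjusted p = 0.0495). Of the 6 lower genes 3 had no start-site anchor in the cluster2 set, and with library size alone, 5 genes were higher and 3 lower.

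**Figure D5:**
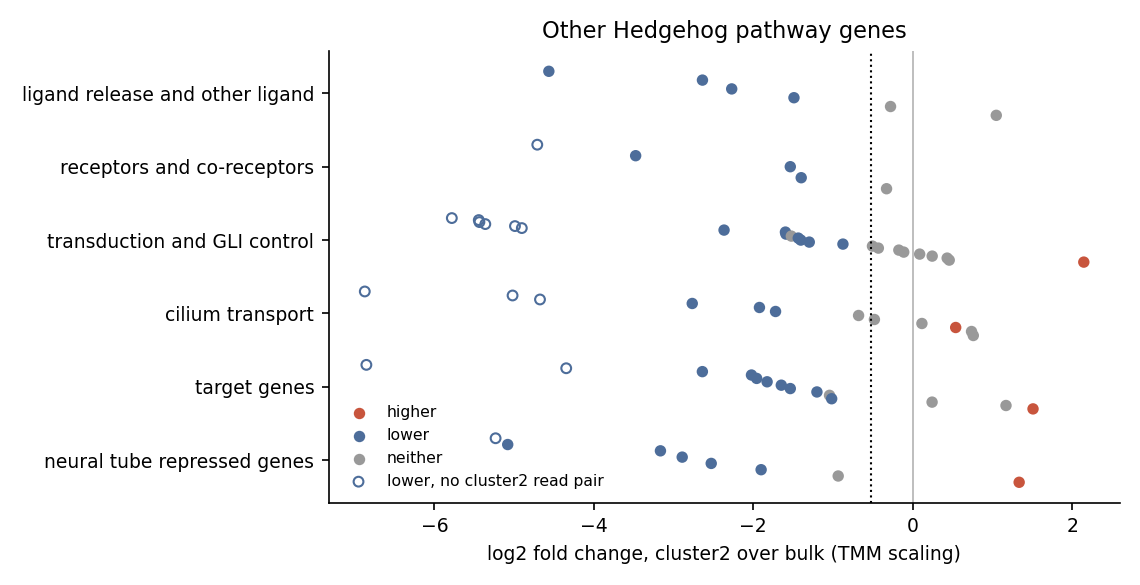
Log2 fold changes of cluster2 over bulk with TMM scaling (horizontal axis) for tested genes of 6 pathway lists (vertical axis, 1 point per gene), red for higher, blue for lower, grey for neither, and open where no cluster2 read pair was present, whose fitted values depend on the prior count. The dotted line marks the median of all genes, -0.52, and most points lie left of it.

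Among 14 tested target genes, 10 were lower and 1 higher, with a median of -1.59. The exception was Foxa2, a floor plate target that is also a defining endoderm gene, with 78 bulk and 201 cluster2 read pairs (1.51, edgeR adjusted p = 5.5e-06). Nkx2-2, Nkx6-1 and Nkx6-2, ventral neural tube factors, were lower at -2.02, -1.65 and -1.96, as were the cell cycle targets Ccnd1 at -1.54 and Mycn at -2.64. Of the genes that Hedgehog represses in the neural tube, 6 of 8 were lower, with a median of -2.71, among them Pax6 at -3.17 and Irx3 at -5.08, and Msx2 was higher at 1.33 (adjusted p = 0.018). With library size alone, the target list had 4 higher and 2 lower and the repressed list 1 higher and 3 lower. Of the lower genes, 2 targets and 1 repressed gene had no start-site anchor in the cluster2 set.

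Cell type markers were counted in the same way. Of 9 tested neural markers 8 were lower, and their summed level ran from 926 to 1678 CPM in bulk and from 94.4 to 156 CPM in cluster2. Sox2 had 97 bulk and 4 cluster2 read pairs, and Sox3 had none in either group. Of 15 endoderm markers 6 were higher, among them Gata4 at 1.74 and Sparc at 1.61, and 3 were lower, with sums from 886 to 1417 CPM in bulk and from 1540 to 2059 CPM in cluster2. Col4a1 and Col4a2, both among the 6, each had 256 cluster2 read pairs and share a promoter region, so they are not separate counts. Hnf4a had no cluster2 read pair. The sorting markers Epcam and Cd38 did not pass, at 1.05 and 0.65 (adjusted p = 0.107 and 0.195), but were higher with library size alone, at 2.75 and 2.38 (adjusted p = 2.9e-05 and 5.64e-06). Pluripotency markers had 3 of 5 higher, Pou5f1, Klf4 and Tdgf1, and mesoderm and blood markers 3 of 5 lower. By library size alone, 12 endoderm markers were higher and 2 lower, 1 neural marker was higher and 8 were lower, 3 pluripotency markers were higher and 1 lower, and mesoderm and blood markers had 2 in each direction. Over all genes, 20.6% were higher and 42.8% lower with TMM, and 55.3% and 26.2% with library size alone. The part of these cell types in the differences at the Hedgehog genes was not tested.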

How the data were processed

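The authors mapped the HiChIP reads to mm9 with HiC-Pro, as the submitters' processing notes name it, and called anchors and loops with hichipper. The deposited values are counts, namely unnormalized read pairs per loop and library, in files without a header. All 216081 joined anchors began at an MboI site and 216078 ended at one, and coordinates are printed as the files give them. Overlapping anchors were joined across the 17 libraries, and 700 read pairs that then lay within 1 anchor were left out. Starts of 22367 protein-coding genes were taken from GENCODE vM1 (mm9), and 19244 genes had an anchor within 5 kb. Read pairs were summed per gene and library, each loop once per gene. Genes and loops were kept when their total reached 20 read pairs and when 5 or more libraries contributed, and were tested with edgeR 4.0.16 (quasi-likelihood, R 4.3.3), all 17 libraries, no covariates, Benjamini-Hochberg adjustment over all rows and a threshold of 0.05. TMM factors, 0.572 to 0.80 in bulk and 2.32 to 2.51 in cluster2, came from the gene table and also served the loop test. Factors from the sparse loop table had given many false calls on simulated data. Those data were drawn with the gene-table factors, so the simulation cannot show which factors suit the real libraries. On simulated data with 200 changed features at a log2 fold of 2, 73.5% of changed genes and 60% of changed loops were recovered, with 4.55% and 0.826% of the calls false. Apart from the changed features both groups had equal means there, unlike the real libraries. The loop test used the factors that had drawn the counts, so its false share does not test the scaling.

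Alternatives were DESeq2 1.42.0, library size alone, TMMwsp, other count filters, shared anchors, spans of at least 20 kb, leaving out distal chromosomes 1 and 2 and the start of 11, a replicate block, thinning to 50508 read pairs, other start-site windows, bins of 25 kb, and leaving out each library. Same-numbered libraries of the groups did not deviate together (correlations from -0.0143 to 0.0104 over genes). This cannot exclude that the numbers pair the samples, because the cluster2 libraries held little deviation beyond counting noise to compare. Between 2 libraries of a group, chi-square per gene ran from 1.24 to 2.94 in bulk and from 1.09 to 1.17 in cluster2. Sampling alone gives about 1, so the cluster2 libraries differed little beyond counting noise and less than the bulk libraries. The labels give no batch and do not say that libraries came from separate cultures, so p-values measure the spread between these libraries. Read pairs carry no molecular identifiers, and floors cover counting error only.

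The 8 genes, the pathway and marker lists and the tests were chosen with earlier results of these data known. Named were the 8 genes, listed pathway genes that passed (up to 8 a list), the loops of each gene in the loop test or else its 2 loops with most read pairs, gene starts within 5 kb of their partners, and the 2 genes most like each member. Other loops and genes named were chosen after their values were seen. Of the listed symbols, Disp1, Grk2, Foxf1, Foxl1 and Sox1 were not matched in the annotation. Figures were drawn with matplotlib 3.10.9.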

Additional observations from a re-analysis of the deposited data

How the results depend on the processing

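Ihh, Gli2 and Gli3 kept direction and call in every alternative in which they could be tested. Gli2 and Gli3 fell under the filter on shared anchors. There the pooled level of Gli2 was higher in cluster2 with both scalings, and that of Gli3 changed direction with the scaling. The kept calls of these 2 genes therefore do not extend to shared anchors. With library size alone Shh turned to 0.817, Ptch1 to 0.120 and Smo to 0.411, Hhip lost its call at -1.145 (adjusted p = 0.151), and the loop between the starts of Ptch1 passed at 2.361. On shared anchors Gli1 turned to -0.138, the Ptch1 loop turned to -0.481, and Ptch1 lost its call at -0.441. The cause was not tested. Gli1 lost its call with the most upstream start (0.521), thinned libraries (0.758), the 2.5 kb window (0.601) and without distal chromosomes 1 and 2 and the start of 11 (0.620). Smo lost it with DESeq2 (-1.233), spans of at least 20 kb (-1.082), thinned libraries (-1.365) and the 10 kb window (-1.100). In the 10 libraries numbered 1 to 5, Smo lost it with the replicate block (-1.203, adjusted p = 0.124) and without it (-1.146), and the block changed no other call of the 8 genes. With 1 library left out at a time, Gli1 ranged from 0.606 to 0.819 and Smo from -1.406 to -1.077.

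Over all genes, 2906 were higher and 6040 lower. Library size alone gave 7800 and 3702, and DESeq2 3089 and 5710. Lower genes numbered 3786 with at least 50 read pairs, 9771 with no filter, 988 on shared anchors and 2981 in thinned libraries. The replicate block gave 2588 and 5811. Higher calls were 32.5% of all gene calls, against 67.8% with library size, 71.9% on shared anchors and 46.9% in thinned libraries. Over all loops, 3011 were higher and 1070 lower. These became 566 and 133 with at least 50 read pairs, 360 and 142 with no filter, 1649 and 403 at spans of at least 20 kb, and 1171 and 111 in thinned libraries. Higher loops numbered 1098 on shared anchors, and lower ones 4407 in bins of 25 kb. Leaving out 1 library gave 1852 to 2925 higher loops, the lowest without cluster2 replicate 1. TMM factors from the loop table, chosen after seeing the data, gave 2044 and 1203. The counts of 4 to 11 read pairs in cluster2 at Gli2, Gli3, Hhip and Smo limit what can be said of their partners there.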

Other observations

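The 2 anchors most often joined to Ihh in cluster2 lay beyond Nhej1 and its known enhancer region, and no bulk library joined them to Ihh, which had 10 bulk read pairs on shared anchors. The count of 0 in bulk allows up to 3 read pairs for each. Within cluster2, the read pairs to Slc23a3 were 2, 4, 4, 0 and 3 in replicates 1 to 5 and those to Fam134a and 1810031K17Rik were 2, 3, 1, 3 and 3. Further upstream, Ihh was joined to the starts of Abcb6 and Zfand2b by 7 read pairs and to that of Dnpep by 5, all in cluster2. Downstream, an intergenic anchor 135 kb from the start had 1 bulk and 7 cluster2 read pairs.

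Gli2 in cluster2 kept 6 read pairs, all over 100 kb, of which 5 ended near the starts of other genes: 2 at Mki67ip and 1 each at Ralb, Clasp1 and Tmem37. In bulk, 28 of its 118 read pairs joined 2 of its own start-site anchors, and none did so in cluster2.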
